A study of Homo sapiens with 4 samples.

Results

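The DNA replication machinery was followed as 49 genes, chosen by name and by role, with earlier results of these data known: the origin recognition complex, the licensing factors, the MCM helicase with its activators, the kinases and the phosphatase that start S phase, the replicative polymerases, the clamp and its loader, the flap nuclease and ligase, the single-strand binding protein and 4 nucleotide enzymes. All 49 were listed among the 16448 genes of the total RNA table, and 45 among the 10662 genes of the pulldown table. Reads were summed over the transcripts of a gene. The human embryonic kidney line HEK293T, which carries the SV40 large T antigen, gave 4 libraries, each the only one of its group. A control pulldown (NC PD in the labels) was set against the pulldown with biotin-labelled miR-34a (MIR PD), and a control mimic (NC mimic) against a miR-34a mimic (mir34a mimic), a synthetic RNA that supplies the microRNA, both in total RNA. The sources used here give no dose and no time. Since a group is 1 library, differences between groups have no replicates behind them and are given without p-values.

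In replication, the origin recognition complex marks origins in G1, CDC6 and CDT1 load the ring of MCM2 to MCM7 there, and geminin (GMNN) blocks a second loading. The kinase CDC7 with DBF4, and CDK2 once CDC25A has removed its inhibitory phosphates, turn the ring into an active helicase with CDC45 and GINS. Polymerase alpha with primase primes both strands, polymerases epsilon and delta extend them on the PCNA clamp, and FEN1 and LIG1 join the lagging strand pieces. Many of these genes are transcribed under E2F factors, which RB holds back until G1 cyclin kinases act. The tumour suppressor p53 induces miR-34a, a microRNA that lowers several G1 regulators. Large T antigen binds both RB and p53.

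A microRNA pairs with its targets mainly through its seed, bases 2 to 8 from the 5′ end. The mature sequence is shown because it is the bait of the pulldown and the active strand of the mimic, beside the 2 mature microRNAs found in the RefSeq table used here (GRCh38.p14) with an identical seed, in capitals. miR-34c-5p belongs to the same seed family. miR-34a-5p lies at chr1:9151735-9151756 on the minus strand, and the miR-449 pair at chr5:55170586-55170607 and chr5:55170706-55170727. miR-449 has been reported to act on CDC25A in other cells.
hsa-miR-34a-5p: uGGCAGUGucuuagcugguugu
hsa-miR-449a: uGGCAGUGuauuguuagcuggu
hsa-miR-449b-5p: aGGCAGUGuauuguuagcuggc

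The promoters of the set shared a motif more often than promoters at large. The table of promoters (GRCh38.p14, RefSeq), 250 bases before to 50 bases after a listed start, held 43 of the 49 genes; GINS4, MCM4, MCM5, POLD3, RPA2 and RPA3 were not among them. The first listed start of a gene was used, which for 5 genes (CDC45, ORC1, POLD2, PRIM2 and RRM2) lay downstream of the annotated gene start, by 171 bases for RRM2 and up to 93265 for PRIM2; 0 of these 5 windows held an E2F match. The E2F motifs TTTGGCGC and TTTCCCGC, searched on both strands, were found in 17 of the 43 promoters (39.5%), against 3.59% of 11165 promoters of genes measured in the mimic comparison and 2.31% of all 27305. A promoter with several matches was counted once. The box CCAAT, which neither motif contains, was found on either strand in 53.5% of the 43, against 36.3% and 35.7%. Such a match is a description of the letters, not a site of binding. Shown are 30 bases around the first E2F match, in capitals (either motif or its reverse complement, read along the gene), for the gene with the lowest mimic ratio among those with a match in each functional group; RPA1, the one single-strand binding gene with a promoter in the table, had none. MCM6 held another match, which begins 90 bases before the start.
ORC3, chr6:87590112-87590141, plus strand: cgcgagggcgcGCGGGAAAtcccgagtgca
CDC6, chr17:40287875-40287904, plus strand: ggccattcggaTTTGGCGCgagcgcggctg
MCM6, chr2:135876577-135876606, minus strand: agggctttgcaTTTGGCGCgaaatcccttt
GINS2, chr16:85688967-85688996, minus strand: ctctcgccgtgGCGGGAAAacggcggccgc
CDC25A, chr3:48188443-48188472, minus strand: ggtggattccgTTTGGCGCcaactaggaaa
POLA1, chrX:24693770-24693799, plus strand: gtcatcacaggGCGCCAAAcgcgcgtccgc
POLE2, chr14:49688201-49688230, minus strand: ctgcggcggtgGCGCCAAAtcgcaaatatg
PCNA, chr20:5126663-5126692, minus strand: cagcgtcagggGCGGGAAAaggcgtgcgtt
LIG1, chr19:48170440-48170469, minus strand: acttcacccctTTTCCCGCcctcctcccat
TYMS, chr18:657603-657632, plus strand: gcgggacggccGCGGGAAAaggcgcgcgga

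The libraries differed greatly in depth. The control and miR-34a pulldowns held 306996 and 546180 reads, and the control and miR-34a mimic libraries 45493090 and 42679778. The 45 replication genes listed in the pulldowns had a median of 35 and 62 reads there, and all 49 a median of 5186 and 4624 in total RNA. Of 8 markers that HEK293 cells are known to carry, all 8 were listed in total RNA, together at 2106 RPM (reads scaled to a common library total) in the control and 2641 with the mimic. Most of the control sum came from KRT8 (885.3 RPM), VIM (634.5) and KRT18 (391.4). PAX2 and NEFM were near the floor, at 1.297 and 2.154 RPM in the control, below COL1A1 at 23.12. Of 11 markers of blood, endothelium, liver and fibroblasts 6 were listed, together at 29.01 and 36.46 RPM, mostly COL1A1, a fibroblast collagen. PTPRC, CD3E, HBB, APOA2 and DCN were not listed, and the part of these markers in the results was not tested. Below, a ratio is the log2 of miR-34a over control reads after TMM scaling, for genes with at least 20 reads in both libraries together. Brackets hold its 95% counting interval, which covers counting error in these libraries and not the variation between cultures. "Beyond counting error" means that this interval excludes an equal level.

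Summed over the set, replication genes made up 8080 RPM in the control mimic library and 7296 in the miR-34a mimic library. In the pulldowns they made up 7824 and 7682 RPM. MCM7 had the most reads of the set in total RNA, 33683 and 30324, and POLE2, a small subunit of polymerase epsilon, the fewest, 858 and 688. In the pulldowns MCM7 and POLE stood highest, with 276 and 424 and with 217 and 451 reads. Reads were not compared between genes as levels, since they grow with transcript length and the deposited RPKM values could not correct for it: 1 length factor served all transcripts of a gene, and that of POLE, a very large subunit, was 0.067 of that of POLA1.

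**Figure D1:**
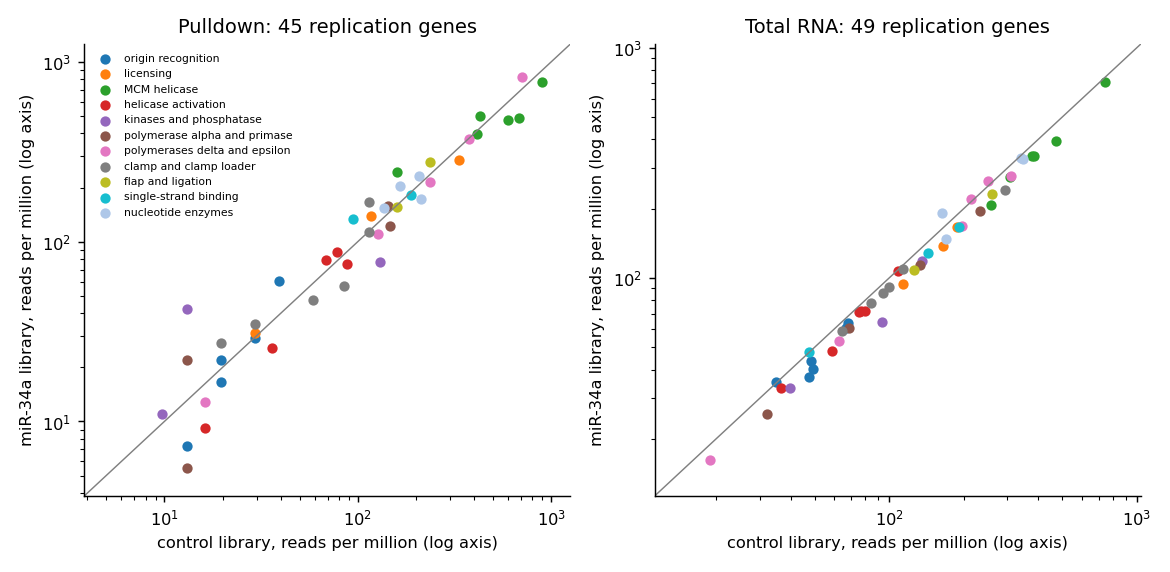
Levels in RPM in the control library (x, log axis) and the miR-34a library (y, log axis) for the 45 replication genes listed in the pulldown and the 49 in total RNA, 1 point per gene, colored by function, 1 library per axis. In total RNA most points lie just below the line of equal values; in the pulldown they scatter on both sides, most widely at few reads.

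With the miR-34a mimic, replication genes stood slightly and broadly below their control level. The median ratio was -0.14, against -0.0022 over all 14787 measured genes, and 43 of the 49 genes (87.8%) lay below the median gene, where 50% of all genes lie. Below the lower quartile lay 17 (34.7%), where 25% of all genes lie. 32 genes were lower beyond counting error and 3 were higher, against 23.1% and 25.3% of all genes. Replication genes are deeply read, which makes small differences easier to call; of the 8498 genes with at least as many control reads as POLE2, the least read of the set, 31.8% were lower, 28.9% were higher, 53.1% lay below the median gene and 20.6% below the lower quartile. The differences were small. At least 1.2-fold lower were 7 of the 49 genes (14.3%), close to the 10.7% of all genes and the 10.5% of the deeply read ones, and 0 were higher by that much, against 14.8%. At 1.5-fold 0 differed, against 2.45% of all genes lower and 6.8% higher by that much. The ratios were also close together, with quartiles of -0.20 and -0.08, where those of all genes were -0.18 and 0.21 and those of the deeply read genes -0.15 and 0.13. In bulk RNA, fewer cells in S phase and less RNA per cell cannot be told apart.

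**Figure D2:**
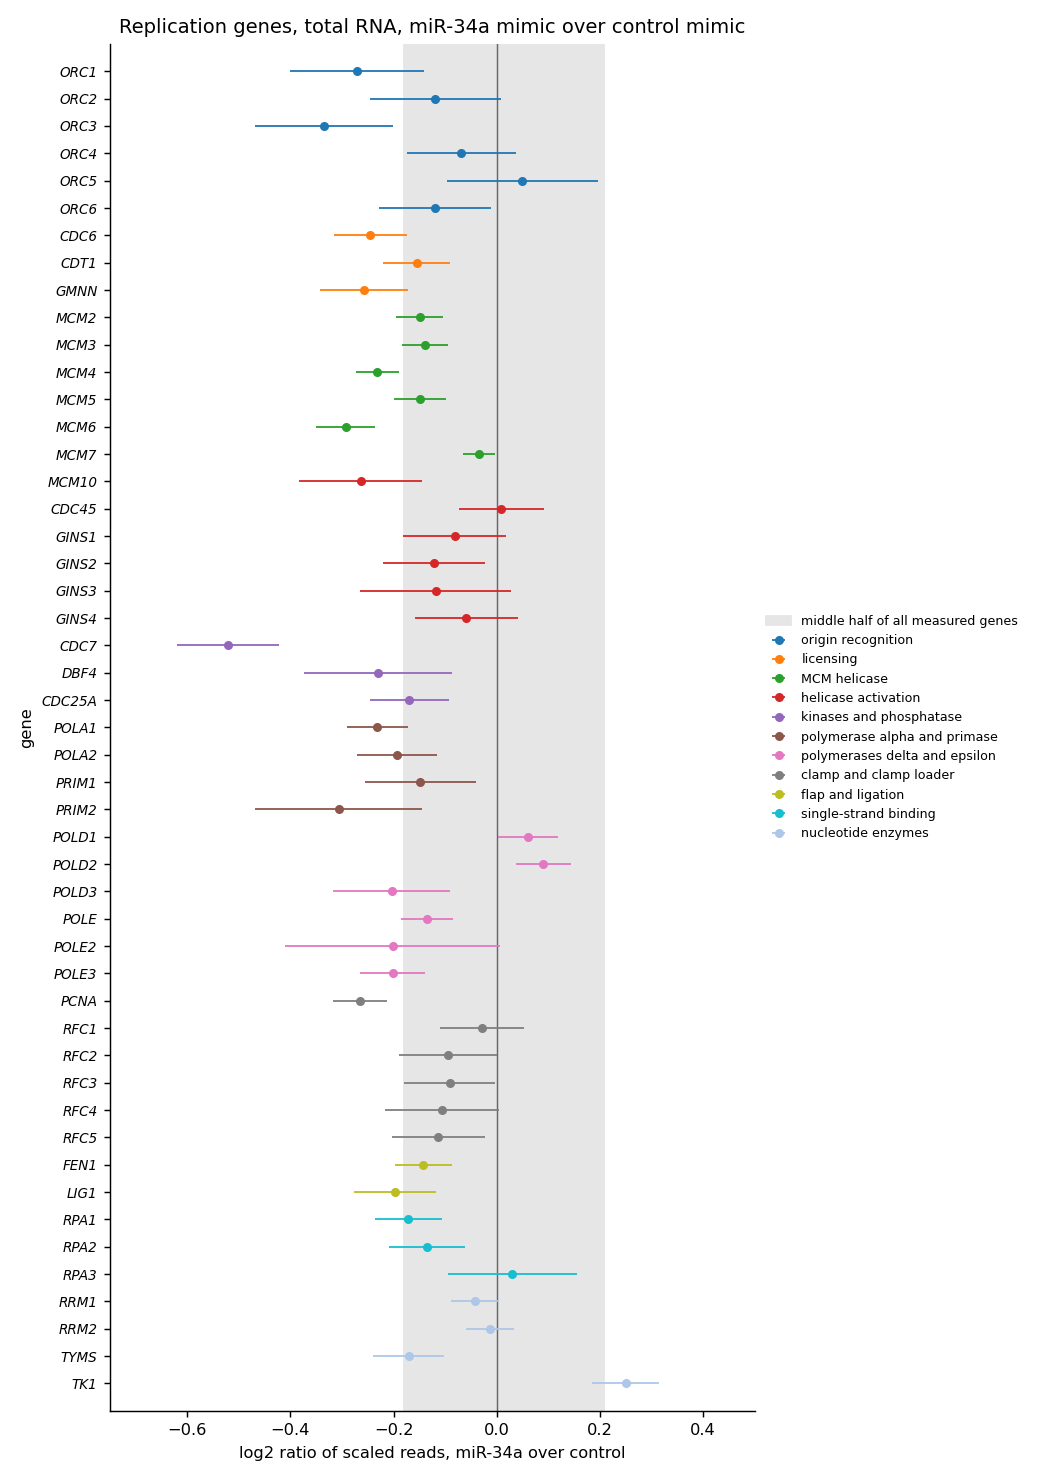
Log2 ratio of total RNA reads, miR-34a mimic over control mimic (x), for the 49 replication genes (y), in order of function, with 95% counting intervals as bars; the grey band spans the quartiles of all measured genes, and there was 1 library per group. CDC7 lies farthest to the left at -0.52 and TK1 farthest to the right at 0.25.

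The initiating kinase stood lowest. CDC7 (chromosome 1, 91500851 to 91525764 in GRCh38.p14), the catalytic subunit that phosphorylates the MCM ring, had 4265 control and 2741 mimic reads. Its ratio was -0.52 [-0.62 to -0.42], 0.697 of the control level, and 5.35% of all measured genes lay lower. All 3 listed CDC7 transcripts were lower, between -0.54 and -0.48. DBF4, its activating subunit, had 1802 and 1417 reads (-0.23 [-0.37 to -0.086]). CDC25A, the phosphatase that activates CDK2, had 6151 and 5043 reads, a ratio of -0.17 [-0.25 to -0.093]. Its ratio thus lay close to the median of the set, whereas the interval of CDC7 overlapped those of ORC3 and PRIM2 and of no other gene of the set. CDC7 overlaps another annotated gene, and DBF4 has annotated pseudogenes. In the set, 26 genes overlap another annotated gene and 11 have a pseudogene of their name, so their reads may be shared.

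Origin recognition genes were split. ORC3, a core subunit, had 2165 and 1583 reads (-0.33 [-0.47 to -0.20]), and ORC1, the subunit whose level follows the cell cycle, 2241 and 1713 (-0.27 [-0.40 to -0.14]). ORC6, the smallest subunit, was also lower, at -0.12 [-0.23 to -0.012], but not with a 99% interval or its most read transcript alone. The intervals of ORC2 (-0.12), ORC4 (-0.07) and ORC5 (0.05) held 0. In ORC4 the transcripts disagreed, from -0.30 to 0.42, the widest spread within a gene of the set. All 3 licensing genes were lower: CDC6, the loading ATPase, with 7525 and 5855 reads (-0.25 [-0.32 to -0.17]), its partner CDT1 with 8569 and 7095 (-0.16 [-0.22 to -0.091]) and the inhibitor GMNN with 5186 and 4000 (-0.26 [-0.34 to -0.17]). The loaders and the inhibitor of loading thus stood on the same side.

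The 6 genes of the MCM ring were all lower beyond counting error, although not equally; for MCM7 this was lost with a 99% interval and with its most read transcript alone (-0.04). MCM6 had 11715 and 8817 reads (-0.29 [-0.35 to -0.24]) and MCM4 21409 and 16813 (-0.23 [-0.27 to -0.19]). MCM2, MCM5 and MCM3 lay at -0.15, -0.15 and -0.14. MCM7, with 33683 and 30324 reads, was at -0.03 [-0.066 to -0.0028], next to an equal level, and its interval does not overlap those of the other 5. The MCM7 gene hosts the microRNA genes MIR25, MIR93 and MIR106B and overlaps AP4M1, and the sources used here do not say how strand was handled. Among the activators, MCM10, which helps open the ring, had 2668 and 2049 reads (-0.26 [-0.38 to -0.15]) and GINS2 3617 and 3064 (-0.12 [-0.22 to -0.023]), the latter not separated with a 99% interval. CDC45 (0.01), GINS1 (-0.08), GINS3 (-0.12) and GINS4 (-0.06) had intervals that held 0, so the remaining partners of the active helicase were not separated from the control.

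The polymerase genes differed among themselves. All 4 subunits of polymerase alpha and primase were lower: the catalytic POLA1 with 10597 and 8322 reads (-0.23 [-0.29 to -0.17]), its partner POLA2 at -0.19, and the primase subunits PRIM1 and PRIM2 at -0.15 and -0.31. PRIM2 has near-identical duplicated sequence in the genome, and its count is uncertain. In polymerase epsilon, the catalytic POLE had 14113 and 11853 reads (-0.13 [-0.18 to -0.085]) and the histone-fold subunit POLE3 8986 and 7203 (-0.20 [-0.27 to -0.14]). POLE2 lay at -0.20 [-0.41 to 0.0065]. Polymerase delta was split: its catalytic POLD1 had 9724 and 9350 reads (0.06 [0.0022 to 0.12]) and POLD2 11436 and 11228 (0.09 [0.037 to 0.14]), both higher, whereas POLD3, with 2848 and 2280 reads, was lower at -0.20 [-0.32 to -0.091], though not by its most read transcript alone. The intervals of POLD1 and POLD2 lay apart from those of POLE, POLE3 and all of polymerase alpha. POLD1 no longer passed on library totals alone, at 0.036, by its most read transcript, or with a 99% interval.

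PCNA, the sliding clamp, had 13335 and 10233 reads (-0.26 [-0.32 to -0.21]), and its 2 transcripts lay at -0.32 and -0.22. Pseudogenes and an antisense gene of PCNA are annotated, so its reads may be shared. The clamp loader lay nearer to the control. RFC3 (-0.09) and RFC5 (-0.11) were lower beyond counting error, neither of them with a 99% interval. RFC3 was also not separated by its most read transcript alone (-0.05). The intervals of RFC1 (-0.03), RFC2 (-0.09) and RFC4 (-0.11) held 0. The interval of PCNA lay below that of the large subunit RFC1 and those of RFC2, RFC3 and RFC5. Of the lagging strand enzymes, the flap nuclease FEN1 had 11772 and 9836 reads (-0.14 [-0.20 to -0.087]) and the ligase LIG1 5746 and 4624 (-0.20 [-0.28 to -0.12]). RPA1 and RPA2, which coat single-stranded DNA, were lower at -0.17 and -0.14, while RPA3 had 2167 and 2041 reads (0.03 [-0.094 to 0.16]).

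Of the 4 nucleotide enzymes 1 was higher and 1 lower beyond counting error. TK1, the salvage thymidine kinase on chromosome 17 (78174079 to 78187204), had 7421 control and 8137 mimic reads, a ratio of 0.25 [0.19 to 0.31]. It was the highest gene of the set and the only 1 of the 49 above the upper quartile of all genes. TYMS, which makes thymidylate anew, had 7690 and 6299 reads (-0.17 [-0.24 to -0.10]); it overlaps ENOSF1 and TYMSOS, whose reads cannot be told apart without strand. The ribonucleotide reductase subunits RRM1 (15705 and 14058 reads) and RRM2 (15548 and 14214) lay at -0.04 and -0.01 with intervals that held 0. TK1 and TYMS, 1 gene each of salvage and new synthesis of thymidylate, thus stood on opposite sides of the control in these libraries.

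The E2F letters did not divide the set sharply. The 17 genes with a match had a median ratio of -0.17, from -0.33 for ORC3 to -0.03 for MCM7. The 26 without one had a median of -0.12, from CDC7 at -0.52 to TK1 at 0.25, so that both ends of the set were genes without these letters in the window. Of the 43 genes 11 have several listed starts, CDC7 and TK1 2 each, and only the first was searched. The 26 also include the 5 genes whose window lay downstream of the gene start. Of the 49 genes, 9 (18.4%) are in the deposited table named for the UTR, for which the sources used here state no criterion, against 25.7% of all measured genes. The median was -0.12 inside it and -0.15 outside. Across transcripts, 23 of the 27 genes with several listed transcripts in the mimic comparison had all of them on the same side of 0. In the pulldown 9 of 22 did. Transcripts of a gene are not independent of each other, and no share over all genes stands beside these counts.

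Neighbouring lists of the same process, drawn up with earlier results of these data known, also had medians below that of all genes with the mimic. Their counts stand beside 23.1% lower and 25.3% higher of all genes, and 31.8% and 28.9% of the deeply read ones, so that the shares higher in histone supply (27.3%) and nucleotide supply (25%) are at the background. Of 26 accessory factors of the fork, 14 were lower and 2 higher, with a median of -0.12; MCM9, a helicase of repair, stood at -0.53, the clamp unloader ATAD5 at -0.51, the fork protein DONSON at -0.32 and the small polymerase delta subunit POLD4 at 0.32. Of 11 genes of histone supply, 6 were lower and 3 higher (median -0.05), with the histone chaperones RBBP4 at -0.44 and NASP at -0.31, SUPT16H at -0.22 and CHAF1B at -0.17. Of 24 genes of nucleotide supply, 12 were lower and 6 higher (median -0.06): the CTP synthase CTPS2, with 98 and 2 reads, at -5.50 [-10.83 to -2.95], the serine hydroxymethyltransferase SHMT2 at 0.42 and thymidylate kinase DTYMK at 0.28. Of 12 checkpoint genes 5 were lower and 2 higher (median -0.07), with CDC25B at 0.59, CHEK1 at -0.37, PKMYT1 at 0.30 and WEE1 at -0.26. Of 30 genes of G1/S control 14 were lower and 6 higher (median -0.06), with the CDK inhibitor CDKN1A at 0.72, the cyclin CCNE2 at -0.62, FBXO5 at -0.48 and CDKN1B at -0.45. The median of the 49 replication genes, -0.14, was next to that of the fork factors, and the difference between the lists was not tested.

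**Figure D3:**
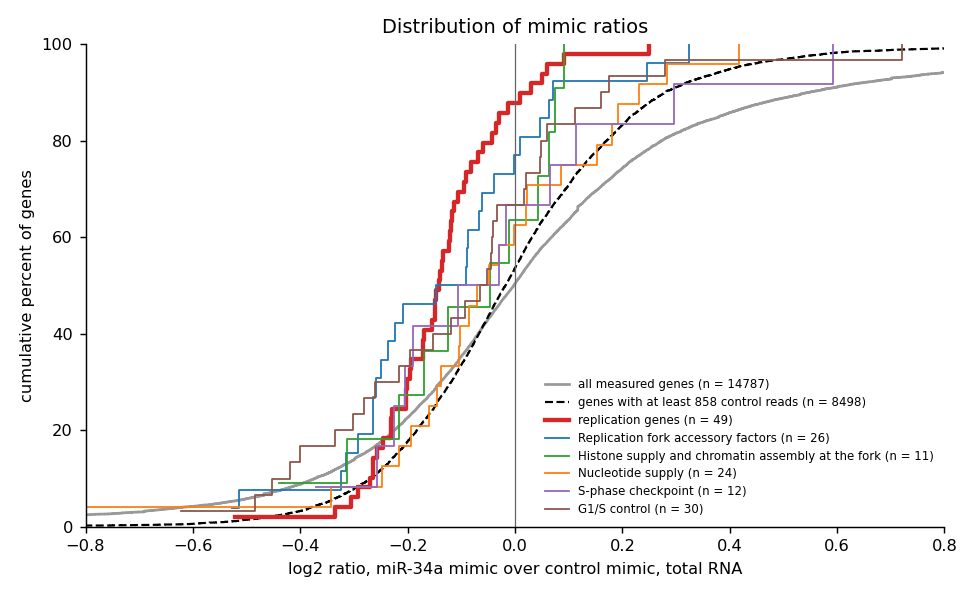
Cumulative percent of genes (y) by log2 ratio of total RNA reads, miR-34a mimic over control mimic (x), for all measured genes, the deeply read genes, the replication genes and the 5 neighbouring lists, 1 library per group. The replication genes climb steeply between -0.33 and 0.06, and 43 of the 49 lie below 0; 1 list gene, CTPS2, lies beyond the left edge.

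In the miR-34a pulldown, no replication gene was above the control beyond counting error with counts divided by 2. That division, made because a read pair may count as 2 reads, decides the call: with undivided counts MCM6, DBF4, POLE and RFC2 were higher and MCM2, MCM5 and CDC25A lower, against 15.5% and 9.39% of all genes, and on deposited RPKM MCM4, MCM6, POLE and RFC2 were higher, against 14.3%. DBF4, with 4 control reads, passed the minimum only through the miR-34a library. Of the 45 listed genes, 37 had 20 reads or more; those measured had a median ratio of 0.03, against 0.11 over all 6253 measured genes. 0 were higher, against 7.08% of all genes, and 1 was lower, against 3.66%, while the intervals of the other 36 held 0. At 1.2-fold 0 were higher and 1 lower, against 6.97% and 3.57% of all genes, and at 1.5-fold 0 and 0, against 6.08% and 2.96%. Depth and the division by 2 limited the comparison. On divided counts the half-width of an interval had a median of 0.83, so that differences below about that size were mostly not detectable. Counts from 10 to 49 were even in 52.3% and 51.0% of cases in the control and miR-34a pulldowns, so halving may widen these intervals too far. The 19 genes below the median gene made up 51.4%, next to the 50% of all genes. Below the minimum were ORC2, ORC4, ORC5, GINS4, CDC7, PRIM1, PRIM2 and POLD3. ORC3, GINS3, POLE2 and RPA3 were not listed; the lowest control count in the table is 1, and genes without a control read were not analysed here. The gene with the lowest mimic ratio, CDC7, had 3 control and 6 miR-34a pulldown reads, too few for a ratio.

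**Figure D4:**
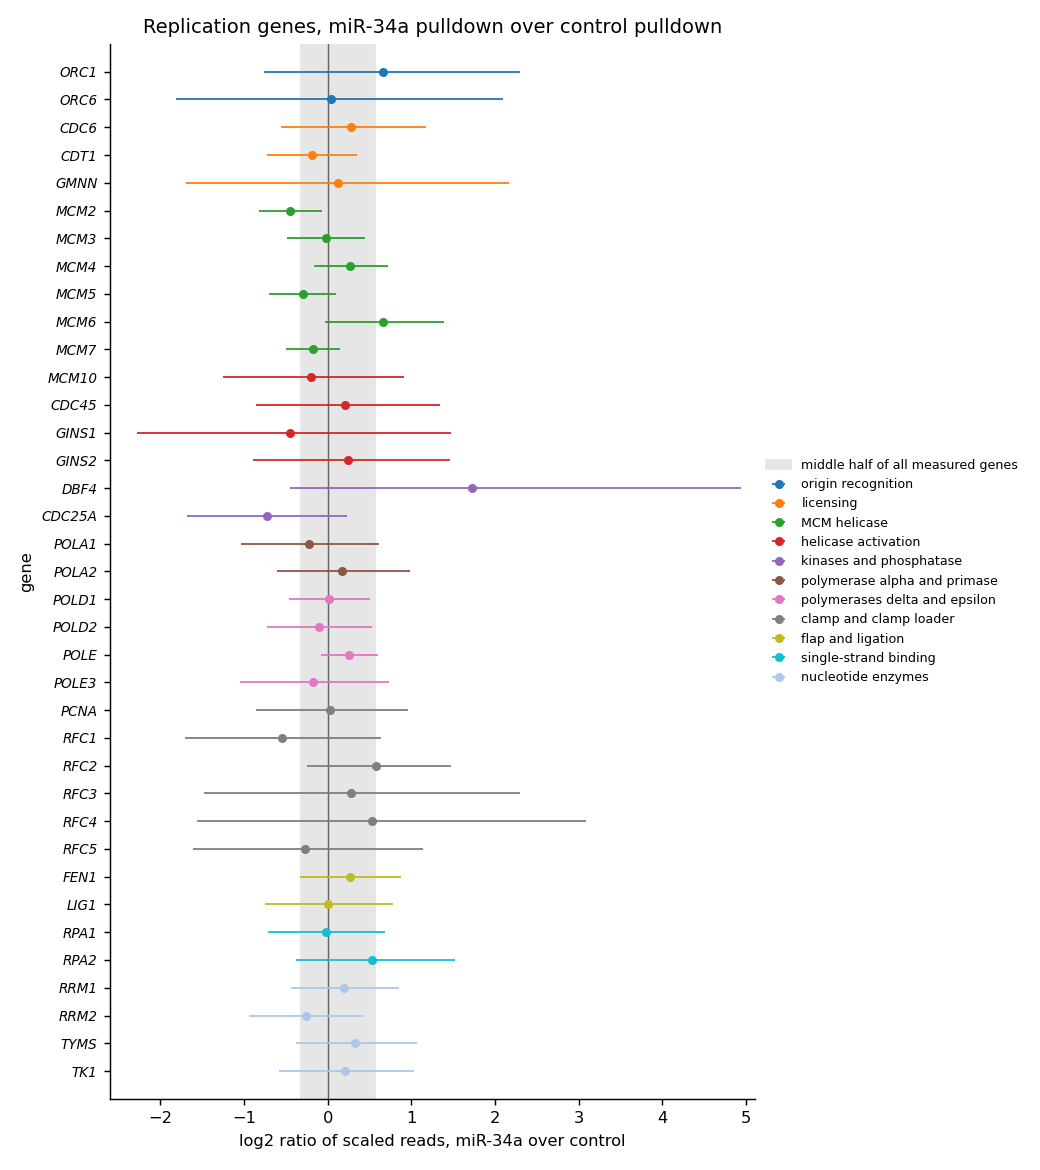
Log2 ratio of pulldown reads, miR-34a over control (x), for the 37 replication genes with at least 20 reads (y), in order of function, with 95% counting intervals as bars; the grey band spans the quartiles of all measured genes, and there was 1 library per group. MCM2 is the single gene whose interval excludes 0.

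MCM2 was the gene lower in the pulldown, with 210 control and 268 miR-34a reads, a ratio of -0.44 [-0.82 to -0.06]. With a 99% interval it was no longer separated from the control. The rest of the ring went both ways: MCM6 had 49 and 134 reads (0.66 [-0.03 to 1.39]), MCM4 131 and 274 (0.27 [-0.17 to 0.72]), MCM5 183 and 258 (-0.30 [-0.70 to 0.10]), MCM7 276 and 424 (-0.18) and MCM3 127 and 217 (-0.02). The intervals of MCM2 and MCM6 do not overlap, and their intervals in the mimic comparison do not overlap either. Summed, the 6 genes had 976 and 1575 reads. With the division by 2, no MCM gene was above the control beyond counting error.

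The extremes of the set in the pulldown rested on few reads. DBF4 had 4 and 23 reads, a ratio of 1.73 [-0.45 to 4.94], the highest, and CDC25A 40 and 42, a ratio of -0.73 [-1.68 to 0.23], the lowest. CDC25A, the gene of the set reported under this seed in other cells, thus lay below the control pulldown, within counting error. POLE had 217 and 451 reads (0.26 [-0.08 to 0.60]) and POLD1 116 and 204 (0.02 [-0.46 to 0.51]); both are genes that cancer sequencing panels commonly carry. RFC2 had 35 and 91 reads (0.58 [-0.24 to 1.47]), ORC1 12 and 33 (0.66 [-0.76 to 2.30]), CDC6 36 and 76 (0.28 [-0.56 to 1.18]) and CDT1 102 and 155 (-0.19 [-0.72 to 0.35]). PCNA had 35 and 62 reads (0.03), but its 2 transcripts stood at 7 and 38 and at 28 and 24 reads. The reads of these 2 transcripts were therefore not copies of each other, and they were summed. Whether reads of other genes were counted for several transcripts was not tested. If they were, the intervals of summed reads would be too narrow. TK1 (42 and 84 reads, 0.20) and TYMS (51 and 111, 0.33), which differed in direction with the mimic, lay on the same side here with intervals that held 0.

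The neighbouring lists held some genes above the control beyond counting error, to be read against the 7.08% of all measured genes. Among 18 measured fork factors these were ATAD5 (1 and 22 reads, 3.66 [0.16 to 13.75]), the helicase RECQL4 (27 and 166, 1.82 [0.98 to 2.77]) and MCMBP, which binds the MCM ring (38 and 121, 0.87 [0.11 to 1.70]). NASP (9 and 57, 1.87) was the 1 of 10 histone supply genes, ATR (7 and 115, 3.24 [1.72 to 5.34]) the 1 of 7 checkpoint genes, and CCNE1 (1.82), CDK2 (17 and 68 reads), CCND3 (1.18) and CDKN2A (0.62) the 4 of 25 G1/S genes. Of 19 nucleotide supply genes 0 were higher, and in all 5 lists 0 were lower. ATAD5, NASP, ATR, CCNE1, CDK2 and CCND3 had fewer than 20 control reads and so passed the minimum only through the miR-34a library, where they are high; their values are a description. Shares of 1 in 10 or 1 in 7 rest on a single gene, and whether the replication genes differ from these lists was not tested.

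Of the 37 genes measured in both comparisons, 27 were lower with the mimic and 0 higher in the pulldown, which fixes the number in both at 0. Over all 6239 genes measured in both, 1860 were lower with the mimic, 441 were higher in the pulldown and 173 (2.77%) were both. Pearson's r between the mimic and pulldown ratios over these 37 genes was -0.20, as was Spearman's rho, against -0.033 and -0.048 over all 6239 genes, given as a description: genes of 1 pair of libraries share depth and scaling and are not replicates. MCM6 had both a low mimic ratio (-0.29) and a pulldown ratio of 0.66 just short of passing, while MCM2, lower in both, had -0.15 and -0.44. PCNA combined -0.26 with 0.03. Low total RNA thus went with pulldown values on either side of the control.

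**Figure D5:**
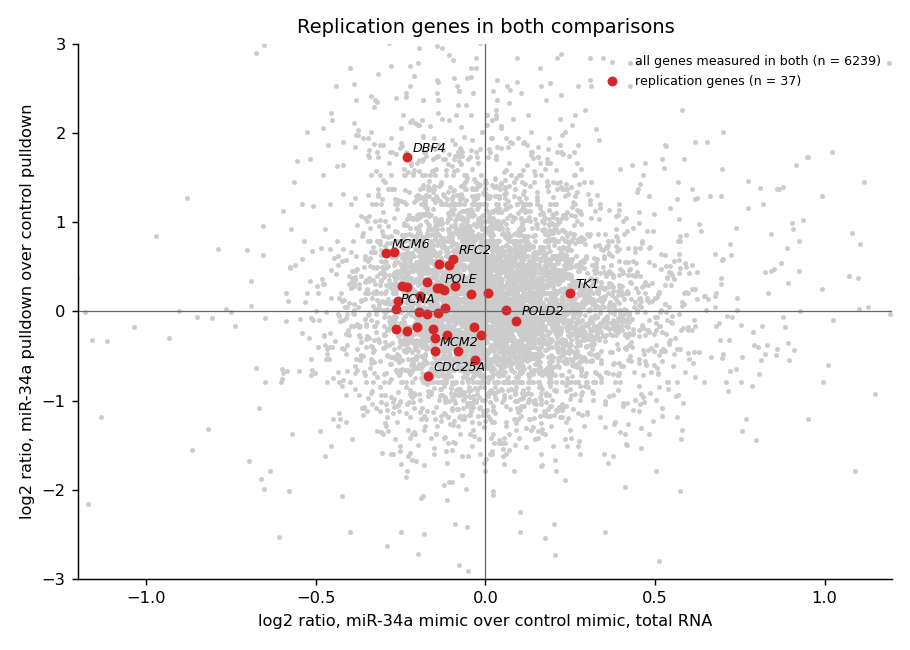
Log2 ratio in total RNA, miR-34a mimic over control mimic (x), against log2 ratio in the pulldown, miR-34a over control (y), for the 37 replication genes measured in both (red) and all 6239 such genes (grey; 109 lie outside the axes), 1 library per group. The red points gather left of 0 and on both sides of the horizontal line.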

How the data were processed

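The files deposited by the authors give unnormalized counts of reads for each RefSeq transcript. Bowtie2, edgeR and the build hg38 appear in the submitters' processing notes, without roles or versions. RPKM values deposited by the authors beside them used 1 length factor per gene and a depth factor that did not follow the library totals, so they served as an alternative scaling. Reads were added up by gene name, scaled with TMM factors (edgeR 4.0.16, R 4.3.3), and genes with at least 20 reads kept. Exact conditional binomial (Clopper-Pearson) 95% intervals (scipy 1.17.1, Python 3.11.15) were computed on counts divided by 2, because a pair may count as 2 reads: of counts from 2 to 9, 96.0% and 96.3% were even in the control and miR-34a mimic libraries, but 73.5% and 61.7% in the pulldowns, where counts from 10 to 49 were even in 52.3% and 51.0%, so halving may widen pulldown intervals too far; PCR copies are not removed by this, and intervals cover counting error only. The interval code was tested on simulated data. The 49 genes, the lists and the naming rule (all 49 genes; up to 4 called genes farthest from 0 per neighbouring list, of which 1 is not reported here) were chosen with earlier results of these data known. Alternatives were library totals, DESeq2 1.42.0 size factors, deposited RPKM, a minimum of 50 reads or none, the transcript with most reads, undivided counts, 99% intervals, and folds of 1.2 and 1.5. Transcript sequences were not used here.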

Additional observations from a re-analysis of the deposited data

How the results depend on the processing

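The median of the replication genes relative to the median gene with the mimic lay between -0.15 and -0.14 under both filters and the most read transcript; another scaling cannot move it. In the pulldown it went from -0.075 to 0.076 without a filter. Deposited RPKM shifts all ratios of a comparison alike: the pulldown median became 0.30, with 4 genes higher (all genes 14.3%), 0 lower (1.42%) and 4 both higher there and lower with the mimic, and the mimic median became -0.79 (all genes -0.65), with 49 genes lower (79.4%) and 0 higher (2.47%); POLD1 (-0.58), POLD2 (-0.55) and TK1 (-0.39) changed sign. As all 49 genes were lower with the mimic on RPKM, the pulldown count fixed the number in both. The share of all genes in both is not given for RPKM or undivided counts. With undivided counts 4 genes were higher (MCM6, DBF4, POLE, RFC2) and 3 lower (MCM2, MCM5, CDC25A) in the pulldown, against 15.5% and 9.39% of all genes. DBF4 passed the minimum only through the miR-34a library. The 4 higher genes were also lower with the mimic, where 39 of the 49 were lower in that setting, against 30% of all genes. With 99% intervals 0 were lower in the pulldown (all genes 1.71%) and 27 lower with the mimic (17.4%). At 1.2-fold, 7 were lower and 0 higher with the mimic; at 1.5-fold, 0 and 0, and 0 were lower in the pulldown. Other counts stayed within 1.5 times. No paired analysis was possible because each group has 1 library; for the same reason no library could be left out. Depth and the division by 2 limit the pulldown.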
